A study of Mus musculus with 6 samples.

Results

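Superficial cortical layer neuron genes are described here in mouse prefrontal cortex with and without a duplication of the segment that matches human 16p11.2. The 7 genes are Cux1, Cux2, Rorb, Lhx2, Calb1, Pou3f2 and Mef2c, chosen by symbol as markers of layers 2 to 4 and as factors of upper layer neurons, from 45495 gene names used. All 7 passed the filter on low counts, among 15419 genes tested. RNA was sequenced from prefrontal cortex homogenate at postnatal week 8 in 3 libraries labelled heterozygous for the 16p11.2 duplication and 3 labelled wild type. The duplication line was founded on C57BL/6N:129Sv hybrid stock, then crossed to C57BL/6 for 10 generations and kept on C57BL/6. Wild type libraries carry no allele or agent that the labels name. The labels do not say whether each library came from its own animal, so the p-values reflect library-to-library spread, which may be technical.

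Neurons of the superficial layers send most of their axons to other cortical areas and to the opposite hemisphere, whereas many deep layer neurons project out of the cortex. Their identity is set and kept by transcription factors. Cux1 and Cux2 are homeodomain factors of upper layer neurons that shape dendrites and spines, Pou3f2 (BRN2) is a POU factor of upper layer neuron production and migration, and Lhx2 is a LIM homeodomain factor of cortical progenitors that stays on in part of the adult cortex. Rorb is a nuclear receptor that marks layer 4 of sensory cortex, a layer that rodent medial prefrontal cortex hardly has. Mef2c is a MADS box factor that activity regulates in many excitatory and inhibitory neurons, and Calb1 encodes calbindin, a calcium buffer of layer 2 and 3 pyramidal cells and of some interneurons. None of the 7 is a marker of one layer alone in a homogenate, and fewer cells of a type cannot be told apart there from less RNA per cell.

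Of the deposited gene names, 65.1% stood against the counts of another gene, and the values below use re-aligned names. Cux1, Cux2, Lhx2, Calb1 and Pou3f2 had an offset of 2 lines, Rorb one of 1 and Mef2c one of 0. In a window of up to 200 names on each side of every one of the 7 genes, counts followed the protein-coding class of the names best at that same offset. As deposited, the name Cux1 stood against 0 counts in all 6 libraries together and Cux2 against 4. After re-alignment Cux1 had 5140 counts and Cux2 5907.

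Total counts per library were 14891890 to 21872271 in the duplication group and 12988457 to 14369271 in the wild type group. Mapk3 and Kctd13, which lie in the duplicated segment, had non-overlapping groups with higher duplication values, with log2 fold changes of 0.59 and 0.75 that did not pass over all genes (edgeR adjusted p of 0.163 and 0.163). The Y-linked genes Kdm5d, Uty, Ddx3y and Eif2s3y together had 4617 counts in duplication replicate 1 and 2515 in wild type replicate 1, where Xist had 0. Xist had 2090 and 2567 counts in duplication replicates 2 and 3, and 2130 and 3531 in wild type replicates 2 and 3, so both groups hold the same mix of sexes. The libraries numbered 2 also held 182 Y-linked counts in the duplication and 177 in the wild type group. The cortical excitatory genes Slc17a7 and Camk2a had 91900 and 83096 counts over the 6 libraries.

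No superficial layer gene passed the test between genotypes. In the edgeR quasi-likelihood test 0 of the 7 were higher and 0 lower at an adjusted p under 0.05, where the share over all genes was also 0% in each direction. At an unadjusted p under 0.05, 1 of 7 was higher, Lhx2, beside 7.05% of all genes, and 0 were lower, beside 12.2%. DESeq2 and limma-voom called 0 of the 7 as well. Over all genes DESeq2 called 46 higher and 239 lower, and limma-voom 0 in each direction. The median log2 fold change of the 7 was 0.03, against 0.005 over all genes tested, with 5 positive and 2 negative values.

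**Figure D1:**
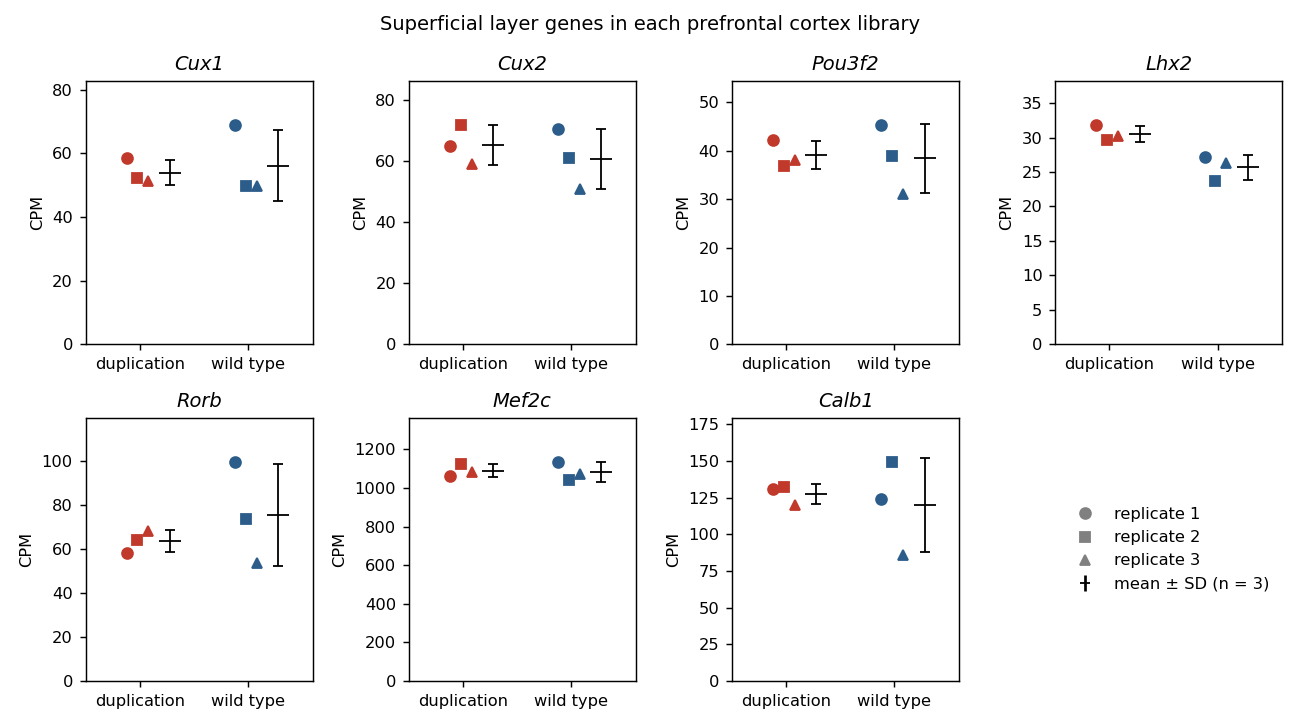
Level in CPM (counts scaled to library size, y axis from 0) of the 7 genes in each of the 3 duplication and 3 wild type libraries, with mean and SD beside them. Only Lhx2 has groups that do not overlap, and the wild type libraries are spread more widely than the duplication libraries for each gene.

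Cux2 (mm10 chromosome 5, 121856366 to 122050102, minus strand), a classical marker of layers 2 to 4, had 65.1, 72.0 and 59.1 CPM in duplication replicates 1 to 3 and 70.6, 61.0 and 50.9 CPM in wild type replicates 1 to 3 (CPM, counts scaled to library size). The highest value was that of duplication replicate 2 and the lowest that of wild type replicate 3, and the groups overlapped. Means were 65.4 ± 6.4 CPM in the duplication group and 60.8 ± 9.9 CPM in the wild type group (SD, n = 3 each). The log2 fold change of duplication over wild type was 0.10 ± 0.12 (SE), with a 95% interval of -0.16 to 0.37 and an edgeR adjusted p of 0.646. As a fold, that interval ran from 0.893 to 1.29.

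Cux1 (chromosome 5, 136248135 to 136567490, minus strand), its paralog, had 58.6, 52.1 and 51.2 CPM in duplication replicates 1 to 3, against 68.9, 49.7 and 49.7 CPM in wild type replicates 1 to 3. Only wild type replicate 1 stood off from the others. Its log2 fold change was -0.05 ± 0.13 (95% interval -0.34 to 0.23, edgeR adjusted p = 0.844). Without wild type replicate 1 it was 0.12. In the annotation Cux1 shares 394 exon bases with Gm16599 on the opposite strand, with strand use in counting not given in the sources used here. Within a library, the ratio of Cux2 to Cux1 CPM was 1.11, 1.38 and 1.16 in the duplication libraries and 1.02, 1.23 and 1.03 in the wild type libraries, with overlapping groups.

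Pou3f2 (chromosome 4, 22482780 to 22488366, minus strand), a gene of 1 exon, had 42.3, 36.9 and 38.0 CPM in duplication replicates 1 to 3 and 45.4, 38.8 and 31.1 CPM in wild type replicates 1 to 3. The duplication values lay inside the range of the wild type ones. Its log2 fold change was 0.03 ± 0.13, with a 95% interval of -0.26 to 0.31 (edgeR adjusted p = 0.924).

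Lhx2 was the 1 member whose groups did not overlap, which also held for 22.1% of all genes tested, and in the higher direction for 11.7%. The gene (chromosome 2, 38339281 to 38369733, plus strand) had 31.8, 29.7 and 30.2 CPM in duplication replicates 1 to 3 and 27.1, 23.7 and 26.3 CPM in wild type replicates 1 to 3. Every duplication value lay above every wild type value, with a gap between the groups smaller than the range within the wild type group. The log2 fold change was 0.25 ± 0.08, a fold of 1.19 with a 95% interval of 1.05 to 1.35, at an unadjusted p of 0.0112 and an edgeR adjusted p of 0.176 over all genes. It therefore did not pass. The value was 0.19 to 0.29 when any 1 library was left out, and the adjusted p of these fits was 0.121 to 0.492. Astrocytes also express Lhx2, and 9 of 10 astrocyte markers had a positive log2 value, with a median of 0.13. At an unadjusted p under 0.05 (edgeR), 2 of them were higher and 1 lower, beside 7.05% and 12.2% of all genes. Their summed level was 3961 to 4250 CPM in the duplication libraries and 3882 to 4051 CPM in the wild type libraries, with none at 0. Meningeal fibroblast markers were also higher in the duplication group, with 10 of 10 positive and 8 higher at an unadjusted p under 0.05 (edgeR), beside 7.05% of all genes. Their summed level was 41.4 to 81.1 CPM in the duplication libraries and 28.1 to 40.8 CPM in the wild type libraries, with none at 0 in all libraries. Their mean deviation was 0.96, 0.26 and 0.03 in duplication replicates 1 to 3. Without duplication replicate 1 their median log2 value was 0.40, against 0.74 with it. In that fit 4 were higher at an unadjusted p under 0.05 (edgeR), beside 502 of 15664 over all genes, and the astrocyte median was 0.07. Microglia markers were positive for 9 of 10 (median 0.08) and endothelium markers for 6 of 8 (median 0.07), but oligodendrocyte markers for 1 of 10. The part of any of these cell types in the Lhx2 value was not tested.

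Rorb had the lowest fold change of the 7 and the widest spread. The gene (chromosome 19, 18930605 to 19111196, minus strand) had 58.3, 64.2 and 68.0 CPM in duplication replicates 1 to 3 and 99.6, 73.3 and 53.3 CPM in wild type replicates 1 to 3. The wild type libraries thus held both the highest and the lowest value, and the 3 duplication libraries lay between them. The log2 fold change was -0.25 ± 0.19 (95% interval -0.67 to 0.17, edgeR adjusted p = 0.478). It was 0.0016 without wild type replicate 1 and -0.45 without wild type replicate 3, so its size rests on single wild type libraries, and it did not pass in either fit (edgeR adjusted p of 0.998 and 0.457).

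Mef2c was the most abundant of the 7 and the steadiest. The gene (chromosome 13, 83504034 to 83667080, plus strand) had 1060.2, 1127 and 1081 CPM in duplication replicates 1 to 3 and 1137, 1039 and 1071 CPM in wild type replicates 1 to 3. The groups overlapped throughout. Its log2 fold change was 0.01 ± 0.06, with a 95% interval of -0.12 to 0.14 (edgeR adjusted p = 0.948), the narrowest interval among the 7.

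Calb1 (chromosome 4, 15881264 to 15908064, plus strand) had 131, 132 and 119.6 CPM in duplication replicates 1 to 3 and 124, 149 and 86.0 CPM in wild type replicates 1 to 3. Wild type replicate 3 was far below the other libraries and wild type replicate 2 above them. The log2 fold change was 0.09 ± 0.16 (95% interval -0.28 to 0.46, edgeR adjusted p = 0.788). It was -0.10 without wild type replicate 3 and 0.28 without wild type replicate 2, and it did not pass in either fit.

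**Figure D2:**
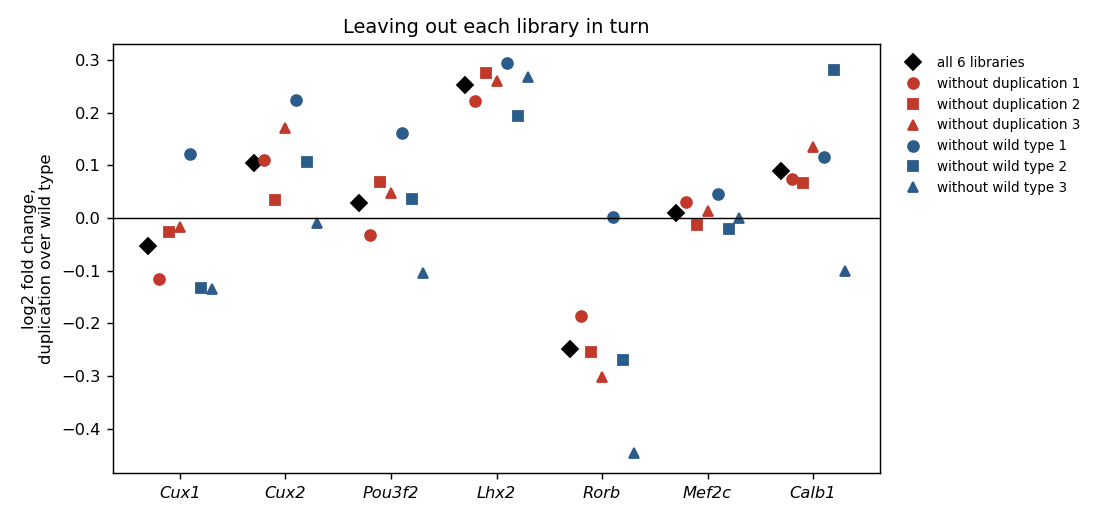
Log2 fold change of duplication over wild type (y axis) for the 7 genes with all 6 libraries (black) and with each library left out in turn (red, a duplication library left out; blue, a wild type library left out). Lhx2 stays between 0.19 and 0.29, whereas Rorb moves between -0.45 and 0.0016 and Calb1 between -0.10 and 0.28.

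Per length Mef2c, Calb1 and Pou3f2 had the 3 highest means in both groups and Cux1 the lowest, while the places of Lhx2, Cux2 and Rorb between them were turned round. Divided by the kilobases of annotated exon, the duplication libraries averaged 69.3 ± 2.2 CPM per kb for Mef2c, 26.3 ± 1.4 for Calb1, 7.0 ± 0.51 for Pou3f2, 6.96 ± 0.26 for Lhx2, 6.49 ± 0.64 for Cux2, 5.73 ± 0.44 for Rorb and 2.69 ± 0.20 for Cux1 (SD, n = 3). In the wild type libraries the level per kb was 68.9 ± 3.2 for Mef2c, 24.7 ± 6.6 for Calb1, 6.88 ± 1.28 for Pou3f2, 5.85 ± 0.41 for Lhx2, 6.04 ± 0.98 for Cux2, 6.81 ± 2.10 for Rorb and 2.80 ± 0.56 for Cux1 (SD, n = 3). Mef2c and Calb1 came first and Cux1 last in each library, while the values of neighbours in the order overlapped among Pou3f2, Lhx2, Cux2 and Rorb. Annotated exon length sums all isoforms, and which isoforms were present was not tested.

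These genes varied more among the wild type than among the duplication libraries. The SD of log2 CPM was 0.11 in the duplication libraries and 0.45 in the wild type libraries for Rorb. For Calb1 it was 0.08 in the duplication and 0.41 in the wild type libraries. Cux1, Pou3f2 and Cux2 had SDs of 0.11, 0.10 and 0.14 in the duplication libraries and 0.27, 0.27 and 0.24 in the wild type libraries. Tested genes within 1.5-fold of these abundances had median SDs of 0.06 to 0.07 in the duplication libraries and 0.10 to 0.11 in the wild type libraries. Lhx2 and Mef2c had SDs of 0.05 and 0.04 in the duplication libraries and 0.10 and 0.07 in the wild type libraries, not above the medians for their own abundance.

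The wild type libraries stood in a recurring order. Wild type replicate 1 was the highest of the 3 for 6 of the 7 genes, and for 32.9% of all genes tested. Wild type replicate 3 was the lowest for 5 of the 7, all but Lhx2 and Mef2c, and for 29.8% of all genes. For Cux1 it was almost level with wild type replicate 2, both at 49.7 CPM. The mean log2 deviation of the 7 genes from the average over libraries was 0.05, 0.03 and -0.02 in duplication replicates 1 to 3, and 0.19, -0.01 and -0.24 in wild type replicates 1 to 3.

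Deep layer genes stood the other way round in wild type replicate 3. The list of 20 holds Bcl11b, Fezf2 and Tbr1, transcription factors of subcortical and corticothalamic neurons, and 19 of them were tested. Their mean deviation was -0.29, -0.17 and -0.07 in duplication replicates 1 to 3 and -0.10, 0.07 and 0.56 in wild type replicates 1 to 3. Not all of them were raised in wild type replicate 3, where the median deviation was 0.49. Crym and Pcp4 had 107.9 and 73.3 CPM there, below their means over the 6 libraries of 110.6 and 76.5 CPM. Markers of oligodendrocytes, the myelin cells of white matter, also had their highest mean deviation in wild type replicate 3. It was 0.08, -0.33 and -0.15 in duplication replicates 1 to 3 and -0.14, 0.10 and 0.43 in wild type replicates 1 to 3. Pdgfra and Cspg4 of that list went the other way, with their lowest values of the 6 libraries there, at 59.7 and 8.03 CPM. The 10 oligodendrocyte markers summed to 1316 to 1757 CPM in the duplication libraries and 1461 to 2461 CPM in the wild type libraries, with none at 0. Their part in the values of Cux2, Rorb and Calb1 was not tested.

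**Figure D3:**
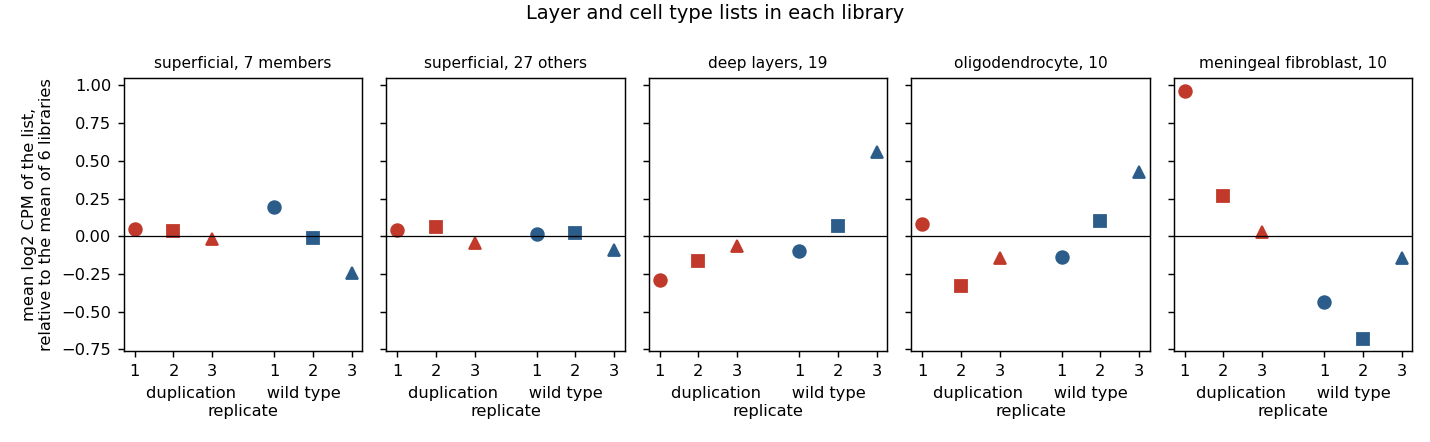
Mean log2 CPM of 5 gene lists in each library (y axis, relative to the mean of the 6 libraries), with replicates 1 to 3 of the duplication group in red and of the wild type group in blue. Wild type replicate 3 is lowest for the 7 superficial layer genes at -0.24 and highest for deep layer genes at 0.56 and oligodendrocyte markers at 0.43.

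In wild type replicate 3 Cux2 was lowest, and Bcl11b and Fezf2 were highest, of the 6 libraries. The ratios of Cux2 to these genes were therefore necessarily lowest there. The ratio of Cux2 to Bcl11b CPM was 0.977, 0.818 and 0.635 in duplication replicates 1 to 3 and 0.624, 0.752 and 0.422 in wild type replicates 1 to 3. The ratio to Fezf2 was 2.23, 2.29 and 1.64 in duplication replicates 1 to 3 and 1.96, 1.85 and 1.13 in wild type replicates 1 to 3. The groups overlapped for both ratios, and no test was made of them.

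Wild type replicate 1 stood apart in another way. The 4 olfactory bulb genes Eomes, Cdhr1, Doc2g and Tbx21 summed to 3.55, 10.1 and 3.14 CPM in duplication replicates 1 to 3 and to 27.5, 6.24 and 3.65 CPM in wild type replicates 1 to 3. Only Cdhr1 passed the filter on low counts, and none of the 4 was at 0 in all libraries. For Eomes duplication replicate 2 was close, with 29 counts beside 32 in wild type replicate 1. Interneuron markers had their highest mean deviation there too, at 0.30, and a median deviation of 0.27. Not all of them were raised, as Sst and Npy had their lowest value of the 6 libraries there, at 94.4 and 33.0 CPM. Without wild type replicate 1 the log2 fold changes of Cux2, Pou3f2 and Rorb were 0.22, 0.16 and 0.0016, against 0.10, 0.03 and -0.25 with it, and none passed (edgeR).

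Beyond the 7, 29 other genes of the superficial layers were examined, of which 27 passed the filter. None passed the test (edgeR adjusted p, 0 higher and 0 lower), and 2 were higher and 3 lower at an unadjusted p under 0.05, shares near those of all genes (7.05% and 12.2%). Their median log2 fold change was 0.07, with 17 positive and 10 negative values. Groups did not overlap for 2 genes that were higher and 3 that were lower, beside 11.7% and 10.5% of all genes. Scnn1a, an epithelial sodium channel subunit that marks layer 4, and Agmat were too low to be tested, with 8 and 30 counts over the duplication libraries and 24 and 8 over the wild type libraries.

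Id2, an inhibitor of helix-loop-helix factors, and Igfn1 were the 2 higher at an unadjusted p under 0.05. The 2 higher genes whose groups did not overlap were Id2 and Rspo1, a WNT pathway enhancer, and the 3 lower ones Plxnd1, Kcnh5 and Hs3st2. Id2 had 96.4, 90.1 and 87.4 CPM in duplication replicates 1 to 3 and 75.6, 84.8 and 74.1 CPM in wild type replicates 1 to 3, a log2 fold change of 0.22 ± 0.07 (edgeR adjusted p = 0.180). Its groups did not overlap. Igfn1 averaged 10.4 ± 2.4 CPM in the duplication and 7.41 ± 1.35 CPM in the wild type libraries (SD, n = 3 each), a log2 fold change of 0.50 ± 0.19 (edgeR adjusted p = 0.211).

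Kcnh5, Mdga1 and Hs3st2 were the 3 lower at an unadjusted p under 0.05. The potassium channel gene Kcnh5 had 45.5, 38.6 and 48.6 CPM in duplication replicates 1 to 3 and 75.4, 49.0 and 54.9 CPM in wild type replicates 1 to 3. Its groups did not overlap, though wild type replicate 2 was close to the duplication libraries, and the log2 fold change was -0.43 ± 0.15 (edgeR adjusted p = 0.193). The adhesion gene Mdga1 was at -0.50 ± 0.18 and the heparan sulfate enzyme gene Hs3st2 at -0.28 ± 0.12, neither of which passed, and the groups of Mdga1 overlapped. Without wild type replicate 2, edgeR called Id2 and Igfn1 higher and Plxnd1 and Kcnh5 lower over all genes. Without both libraries numbered 2 it called Mdga1 lower, and on unfiltered counts Kcnh5. The fit without wild type replicate 2 also called 727 higher and 1677 lower genes in all, and 0 of the 7 members. Over all genes the fit without both libraries numbered 2 called 230 higher and 1094 lower, and the one on unfiltered counts 173 and 843.

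The most abundant of the other superficial genes were Lmo4, a LIM-only cofactor, Rasgrf2, a Ras activator of layer 2 and 3 neurons, and Rora. Lmo4 averaged 287 ± 15 CPM in the duplication and 261 ± 16 CPM in the wild type libraries (SD, n = 3 each), a log2 fold change of 0.14 ± 0.07. Rasgrf2 was lowest in wild type replicate 3, at 182.7, 179.9 and 165 CPM in the duplication and 189, 174 and 134 CPM in the wild type replicates 1 to 3. Its log2 fold change was 0.09 ± 0.11. Stard8 and Pvrl3 likewise had their lowest value in wild type replicate 3, at 20.4 and 42.2 CPM. Hs3st2, Adamts2, Whrn and Inhba had their highest value of the 6 libraries there, at 77.8, 10.0, 7.23 and 5.84 CPM. The mean log2 deviation of the 27 genes in that library was -0.09, against -0.24 for the 7 members.

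**Figure D4:**
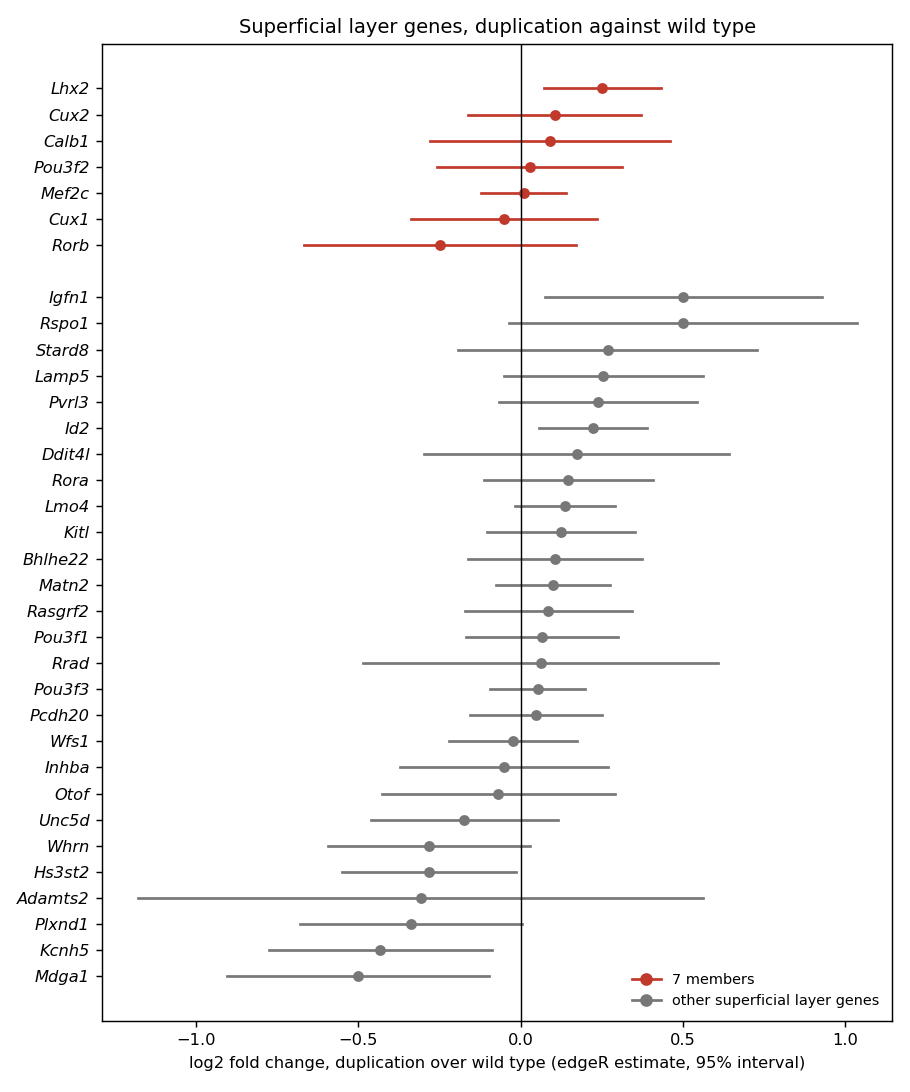
Log2 fold change of duplication over wild type with its 95% interval from edgeR (x axis), for the 7 genes (red) and 27 other tested superficial layer genes (grey), each set ordered by value. The 7 lie between -0.25 for Rorb and 0.25 for Lhx2, and the others between -0.50 for Mdga1 and 0.50 for Igfn1.

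Relatives of the 7 gave values on both sides of 0 as well. Of 10 relatives, mostly paralogs, 8 were tested, and none passed (4 positive, 4 negative). Rora, the nuclear receptor nearest to Rorb, was at 0.15 ± 0.12, Pou3f1 at 0.07 ± 0.10, Pou3f3 at 0.05 ± 0.07 and Pou3f4 at 0.03 ± 0.17. Mef2a was at -0.07 ± 0.07, the CUT domain gene Satb1 at -0.17 ± 0.13 and Calb2 at -0.46 ± 0.46. Mef2d had 68.6, 89.0 and 86.4 CPM in duplication replicates 1 to 3 and 138, 84.6 and 129 CPM in wild type replicates 1 to 3, a log2 fold change of -0.53 ± 0.17 (edgeR adjusted p = 0.179). Mef2d was highest in wild type replicates 1 and 3. Mef2b and Lhx9 were too low to be tested.

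The level of TEC transcripts, unspliced EST clusters, and of sense intronic ones moved with Mef2d. These 292 genes lay at -0.44, -0.43 and -0.12 in duplication replicates 1 to 3 and at 0.47, 0.00 and 0.53 in wild type replicates 1 to 3 on the same log2 scale. Wild type replicate 2 was thus nearest to the duplication libraries in both. The part of these transcripts in the Mef2d value was not tested. The level did not overlap between the groups, so a fit with it cannot tell level and genotype apart. In such a fit the SE of the Cux1 log2 value was 0.25, against 0.13 without the level. With that level in the model the median of the 27 other superficial genes was -0.05 and 0 had an unadjusted p under 0.05, while Lhx2 was at 0.39 and Calb1 at -0.50 (unadjusted p of 0.0287 and 0.0368, edgeR adjusted p of 0.999 each).

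Deep layer genes had mostly negative values, though none passed with all 6 libraries and the filter on low counts (edgeR). Of 19 tested, 7 were lower and 0 higher at an unadjusted p under 0.05, beside 12.2% and 7.05% of all genes. The median log2 fold change was -0.35, with 16 negative values. Zfpm2 was at -0.97 ± 0.25, Tbr1 at -0.63 ± 0.20, Ntsr1 at -0.73 ± 0.28, Ctgf at -1.14 ± 0.44, Parm1 at -0.46 ± 0.17, Syt6 at -0.57 ± 0.22 and Nr4a2 at -0.68 ± 0.30. Wild type replicate 3 had the highest value of the 6 libraries for each of them except Parm1. Without wild type replicate 3 the median was -0.13 and 1 gene was lower at an unadjusted p under 0.05, beside 1121 of 15672 over all genes. Without wild type replicate 2 the median was -0.51, and edgeR called 5 genes lower, Bcl11b, Tbr1, Zfpm2, Etv1 and Parm1. Over all genes that fit called 1677 of 15733 lower. The same 5 deep layer genes were called without both libraries numbered 2, beside 1094 of 15587 lower over all genes. On unfiltered counts edgeR called Tbr1, Zfpm2, Ctgf, Syt6 and Parm1 lower, beside 843 of 26442 over all genes. DESeq2 called Tbr1 and Zfpm2 lower, beside 239 of 15419 over all genes. When the level of TEC transcripts was a covariate, the deep layer median became 0.0073, with 1 gene higher and 0 lower at an unadjusted p under 0.05. Over all 15419 genes, 230 were higher and 214 lower at that threshold in this fit. The TEC level did not overlap between the groups, so this fit cannot tell it apart from genotype. A difference between the superficial and the deep list was not tested. The most abundant deep layer genes were Crym at 0.05 ± 0.10, Bcl11b at -0.35 ± 0.16 and Ldb2 at 0.04 ± 0.10.

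The genes most like Cux2 over the 6 libraries were found by Pearson's r of log2 CPM among 9554 genes with a mean of at least 10 CPM. They were Gabra2, a GABA-A receptor subunit gene (r = 0.990), Fbxl16 (0.986), Pitpnm1 (0.973), Acat2 (0.967) and Pcdh20, a protocadherin gene of the superficial list (0.965). Gabra2 had 158.8, 168.6 and 147.9 CPM in duplication replicates 1 to 3 and 161.9, 149.8 and 135 CPM in wild type replicates 1 to 3. Of the other 6 members, Pou3f2 came in place 332, Calb1 497, Mef2c 825, Cux1 906, Rorb 1037 and Lhx2 2485. All values come from the same 6 libraries, and so many genes are ranked over so few points that high values are easily reached.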

How the data were processed

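RNA of prefrontal cortex homogenate was extracted with Trizol and made into stranded, ribosomal RNA-depleted total RNA libraries, per the labels' protocols. The authors deposited raw counts per gene, made with cutadapt, TopHat2 and HTSeq on mm10, per the submitters' processing notes. They name no versions, annotation or strand setting. Each library's separate table held the same 45801 named values as the joint table.

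Name i was joined to the counts of line i plus an offset of 0 to 6. Names within 25 lines of any of the 6 steps were not used. Lines without a usable name held 0.61% to 0.64% of a library's counts and were left out. Windows around each gene used annotation classes of GENCODE M21 (mm10), which also gave exon lengths.

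The fit was edgeR 4.0.16 (R 4.3.3) on all 6 libraries, using filterByExpr by group, TMM factors and the quasi-likelihood test, with Benjamini-Hochberg adjustment over 15419 genes and a threshold of 0.05. DESeq2 1.42.0 and limma 3.58.1 (voom) were alternatives. CPM uses TMM-scaled library sizes, and log2 CPM a prior count of 2. Each of the 7 genes had 341 or more counts in each library. Reads amplified by PCR and not tagged with molecular identifiers may repeat a molecule.

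The members and gene lists were chosen with earlier results of these data known. Named were the 7 members, all paralogs, and, of the superficial and deep lists, genes with an unadjusted p under 0.05 and the 3 most abundant. Plxnd1, Rspo1, Etv1, Stard8, Pvrl3, Adamts2, Whrn, Inhba, Pcp4, Scnn1a and Agmat were named after their values were seen. Sex as a covariate was added after the data were seen. Some genes of the lists are not reported here, and the list counts leave them out.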

Additional observations from a re-analysis of the deposited data

How the results depend on the processing

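None of the 7 genes passed in any of 17 alternatives with re-aligned names. These were DESeq2, limma-voom, 3 other scalings, 2 other filters, the replicate block, each library left out, both libraries numbered 2 left out, the TEC and sense intronic level, and sex. Lhx2 was positive in each of the 17, at 0.19 to 0.39. Leaving out 1 library gave log2 values of -0.13 to 0.12 for Cux1, -0.0098 to 0.22 for Cux2, -0.10 to 0.16 for Pou3f2, 0.19 to 0.29 for Lhx2, -0.45 to 0.0016 for Rorb, -0.022 to 0.046 for Mef2c and -0.10 to 0.28 for Calb1. The signs of 6 of these genes, all but Lhx2, turned under at least 1 alternative, where the value was not called, and the cause was not tested. With the TEC and sense intronic level the turned values were 0.076 for Cux1, -0.072 for Cux2, -0.083 for Pou3f2 and -0.50 for Calb1. That level did not overlap between the groups and cannot be told apart from genotype in that fit. Mef2c was at -0.042 without the pair of libraries numbered 2, and the line named Calb1 as deposited, which holds another gene's counts, was at -0.098. Over the libraries left out, the median of the 7 was -0.10 to 0.12.

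Counts over all genes moved more. DESeq2 called 46 higher and 239 lower, edgeR on unfiltered counts 173 and 843, and edgeR without the pair of libraries numbered 2 called 230 and 1094. Leaving out 1 library gave 0 to 727 higher and 0 to 1677 lower. The numbers in the titles were not taken as pairs, though the Xist and Y-linked counts followed them. Xist was at 0 only in the libraries numbered 1, and those numbered 2 held Xist beside 182 and 177 Y-linked counts. Same-numbered libraries correlated at 0.102, 0.063 and 0.311 in their deviations from the group means, one of them under 0.1. Of the 6 values between different numbers, 5 were negative, down to -0.283, and duplication replicate 1 with wild type replicate 2 was at 0.157. With the replicate block edgeR called 6 higher and 1 lower genes, and 0 of the 7. Counting error limits the precision most for Lhx2, for which counting alone gives CVs of 4.39% in the duplication and 5.36% in the wild type group, beside CVs of 3.73% and 7.09% between libraries.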
